A study of Mus musculus with 6 samples.

Results

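The 10 transcripts described here encode the 7 sirtuins (*Sirt1* to *Sirt7*), the NAD salvage enzymes *Nampt* and *Naprt*, and the poly-ADP-ribose polymerase *Parp1*. They were listed by name as a functional group, and all 10 were found among the 16381 genes of the deposited table. The RNA came from activated group 2 innate lymphoid cells (aILC2s) of WT mouse lung, which the methods describe as BALB/cJ females of 6 to 8 weeks given intranasal IL-33 at 0.5 µg per day for 3 days. Both groups shared the IL-33 challenge and 24 h of culture, with 250 µM melatonin in 3 samples and with its solvent DMSO (vehicle) in the other 3. Neither the labels nor the methods say whether the 3 samples of a group were separate animals, pools or cultures, so the p-values measure the spread between these samples, which may be technical.

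NAD is a redox carrier and also a substrate that some enzymes consume. Sirtuins use it to remove acetyl and other acyl groups from proteins, and poly-ADP-ribose polymerases use it to attach ADP-ribose chains at sites of DNA damage, and both release nicotinamide. Nicotinamide is recycled to NAD through NAMPT, whereas nicotinic acid enters through NAPRT, and lymphoid cells draw on these routes when they become active.

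The libraries held between 17056267 and 20511700 estimated counts each, and between 63 and 4560 of them lay behind each single value of the 10 transcripts. Values are given as normalized counts, the estimated counts that the authors scaled by one size factor for each library. All 12 of the ILC2 markers examined were in the table, and their summed level was 125241 to 133147 normalized counts in vehicle and 100325 to 104015 in melatonin. Its members went both ways, 2 higher and 6 lower, with log2 fold changes of 0.63 for *Il1rl1*, 0.07 for *Gata3* and −2.16 for *Klrg1*. Several lists of markers of other cells had lower sums in the melatonin samples. The summed level of the T cell list (4 of 8 markers in the table, without *Cd4*, *Cd8a*, *Cd8b1* and *Cd5*) was 1210 to 1349 in vehicle and 458 to 870 in melatonin, that of the NK and ILC1 list (5 of 5) was 2398 to 3411 and 135 to 175, and that of the myeloid list (6 of 7) was 1155 to 1335 and 256 to 698. The B cell list (2 of 5) stood at 289 to 322 and 131 to 162, the endothelial list (1 of 3) at 1001 to 1066 and 310 to 416, the epithelial list (5 of 5, of which *Epcam* was higher and 3 lower) at 893 to 2229 and 1039 to 1237, the mast cell and basophil list (2 of 5) at 2.81 to 16.8 and 1.87 to 36.2, and none of 4 fibroblast markers was in the table. Single genes held most of some sums. In vehicle replicates 1, 2 and 3, *Gzmb* of the NK and ILC1 list was at 2770, 3247 and 2197. *Ncr1* of that list was at 104, 101 and 114 in vehicle and at 0, 0 and 1.01 in melatonin. *Cd3g* of the T cell list was at 1086, 1097 and 1004 in vehicle, and *Pecam1* was the only endothelial marker in the table. The libraries also differed in sex-linked transcripts. *Xist* reached 579 and 1091 in melatonin replicates 2 and 3 and was at 13.6 or less in the other 4 libraries, and the sum of 4 Y-linked genes was 0 in those same replicates and between 2680 and 3038 in the other 4. In the library numbers of the labels, the melatonin samples form one run and the vehicle samples another, so a difference that goes with this numbering cannot be told apart from treatment. The methods describe the mice as female, which does not match the Y-linked values of 4 libraries. The part of these differences in the results below was not tested. Values without melatonin replicates 2 and 3 are given beside those of the 10 transcripts, and rest on 1 melatonin library that is assumed to vary like the vehicle libraries. All 10 genes lie on autosomes.

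Of the 10 transcripts, 7 passed the threshold of 0.05 on the adjusted p (limma, Benjamini-Hochberg over the 14419 genes tested). *Sirt1* and *Sirt7* rose, whereas *Sirt2*, *Sirt5*, *Sirt6*, *Naprt* and *Parp1* fell, and *Sirt3*, *Sirt4* and *Nampt* did not pass. With melatonin replicate 1 as the only melatonin library, and the spread taken from vehicle alone, the 7 kept their direction, with *Sirt2* at −0.12. A fit that weights libraries by their spread gave melatonin replicate 1 the lowest weight, 0.3007, beside 0.707 to 2.015 for the others. In the fit of all libraries, 49.2% of all genes tested passed, 24.5% higher and 24.7% lower, so that a called change was common in this comparison. The median size of change was 0.51 on the log2 scale for the 10 transcripts and 0.45 for all genes. The values of the 2 groups did not overlap for 8 of the 10, 3 higher and 5 lower, beside 60.4% of all genes (30.0% higher and 30.3% lower). As the samples were bulk RNA, fewer cells of a type and less RNA per cell cannot be told apart.

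**Figure D1:**
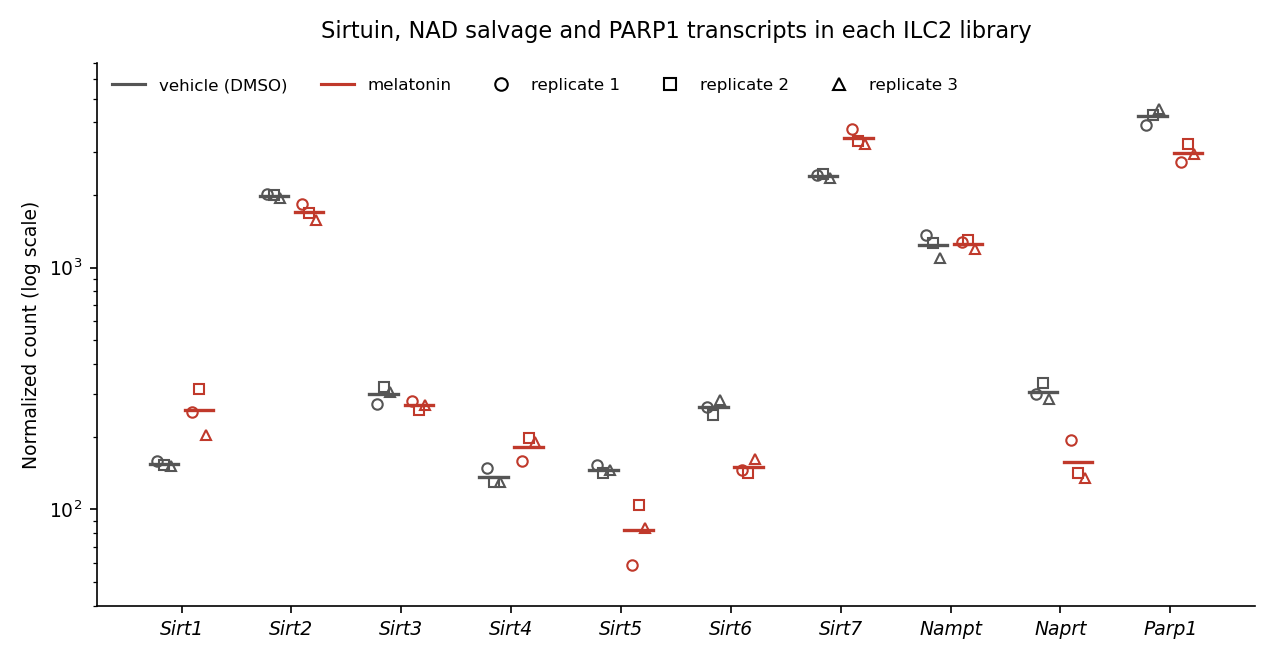
Normalized counts (log axis) of the 10 transcripts in each of the 3 vehicle and 3 melatonin libraries. Points are single libraries. *Sirt7*, *Sirt2* and *Parp1* are at 1574 or more in all of them, and *Sirt5* in melatonin replicate 1 is the lowest value, at 58.8.

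*Sirt1* encodes the nuclear deacetylase of histones and transcription factors, among them p53 and NF-κB. The gene (ENSMUSG00000020063) lies on the minus strand of chromosome 10 of GRCm39, at chr10:63154581-63217483. Its transcript was at 158, 153 and 151 normalized counts in vehicle replicates 1, 2 and 3 and at 252, 316 and 204 in the melatonin replicates. Every melatonin library was above every vehicle library, and the melatonin libraries were the more spread, with a coefficient of variation of 21.8% beside 2.25% in vehicle. The mean went from 154 ± 3.47 to 257 ± 56.0 (SD, n = 3), a change of 0.72 on the log2 scale (standard error, SE, of 0.17, adjusted p = 0.0087 by limma). Without melatonin replicates 2 and 3 it was 0.71. The exons of *Sirt1* share 707 bases, 12.5% of their length, with *Herc4* on the opposite strand, and as no strand was stated in the counting the reads of that stretch cannot be told apart. *Herc4* was at 975 ± 11.4 in vehicle and 1146 ± 109 in melatonin (SD, n = 3), a log2 fold change of 0.23 that did not pass (limma adjusted p = 0.07).

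The upstream sequences of *Sirt1*, which rose, *Parp1*, which fell, and *Nampt*, which did not pass, are shown because their promoters differ in the letters of an E-box, the element bound by circadian clock and MYC proteins. They are from RefSeq on GRCm38.p6, 250 bases up to the start site read 5′ to 3′ on the strand of the gene, at chr10:63339036-63339285 (minus strand), chr1:180568641-180568890 (plus strand) and chr12:32820085-32820334 (plus strand). Capitals mark the letters searched on both strands, CACGTG and TGACNNNGC, the latter a core of the antioxidant response element.
Sirt1: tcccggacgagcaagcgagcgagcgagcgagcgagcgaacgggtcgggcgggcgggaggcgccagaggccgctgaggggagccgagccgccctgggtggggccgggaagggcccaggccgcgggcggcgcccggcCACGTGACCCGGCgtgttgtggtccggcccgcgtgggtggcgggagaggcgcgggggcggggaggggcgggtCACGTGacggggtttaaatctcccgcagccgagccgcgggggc
Parp1: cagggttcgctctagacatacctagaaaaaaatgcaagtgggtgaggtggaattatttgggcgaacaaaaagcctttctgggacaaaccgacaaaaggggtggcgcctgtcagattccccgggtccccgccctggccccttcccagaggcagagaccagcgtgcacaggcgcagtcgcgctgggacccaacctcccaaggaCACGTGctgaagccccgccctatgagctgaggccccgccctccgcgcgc
Nampt: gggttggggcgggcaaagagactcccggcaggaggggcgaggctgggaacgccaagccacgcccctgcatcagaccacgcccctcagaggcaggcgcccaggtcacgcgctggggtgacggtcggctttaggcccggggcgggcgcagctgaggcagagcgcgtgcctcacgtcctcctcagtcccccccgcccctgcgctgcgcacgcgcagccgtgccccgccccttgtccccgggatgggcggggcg
The *Sirt1* window held CACGTG at 115 and at 43 bases before the start, and TGACNNNGC at 111 bases before the start, overlapping the first of them. *Parp1* held CACGTG at 49 bases before the start, and *Nampt* held neither. Of the 9 genes that had a window, *Sirt3* (in 1 of its windows, at 197 bases before the start) and *Sirt7* (at 25 bases after it) held TGACNNNGC alone, and *Sirt2*, *Sirt4*, *Sirt5* and *Sirt6* held neither. *Naprt* had no entry. In all 32851 windows, from 250 bases before to 50 after a start, CACGTG occurred in 7.15% and TGACNNNGC in 12.4%. The *Sirt1* window was 79.0% G or C with 47 CpG dinucleotides, beside 62.0% and 20 for *Parp1*, 76.3% and 36 for *Nampt*, and medians of 52.7% and 7 over all windows. These matches describe the sequence and no binding was measured.

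*Sirt6* and *Sirt7* encode the other nuclear sirtuins, and they moved in opposite directions. SIRT6 acts on histones at chromatin, in DNA repair and in the repression of glycolytic genes, and *Sirt6* (ENSMUSG00000034748, chr10:81455262-81463631, minus strand) was at 266, 245 and 283 normalized counts in vehicle and at 146, 141 and 161 in melatonin. Its groups stood far apart with little spread within either, at means of 265 ± 19.4 and 149 ± 10.4 (SD, n = 3). The log2 fold change was −0.82 (SE 0.13, adjusted p = 0.0013 by limma) and −0.85 without melatonin replicates 2 and 3.

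SIRT7 is the nucleolar sirtuin, known for its role in ribosomal RNA transcription. *Sirt7* (ENSMUSG00000025138, chr11:120509197-120516066, minus strand) was at 2418, 2433 and 2341 normalized counts in vehicle and at 3752, 3345 and 3230 in melatonin. All melatonin libraries were higher, with melatonin replicate 1 the highest. The mean went from 2397 ± 49.7 to 3442 ± 274 (SD, n = 3), a change of 0.52 on the log2 scale (SE 0.08, adjusted p = 0.001 by limma) and 0.65 without melatonin replicates 2 and 3. Its exons overlap *Mafg* on the same strand over 2.4% of their length, and *Mafg* itself had a log2 fold change of −0.13 (limma adjusted p = 0.42).

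*Sirt2* encodes the mainly cytosolic sirtuin, a deacetylase of tubulin. The transcript (ENSMUSG00000015149, chr7:28466160-28488090, plus strand) was at 2025, 1994 and 1942 normalized counts in vehicle and at 1827, 1681 and 1574 in melatonin. The groups did not overlap, but the gap between them was small, with means of 1987 ± 41.7 and 1694 ± 127 (SD, n = 3). The log2 fold change of −0.23 passed narrowly (SE 0.08, adjusted p = 0.042 by limma). The call was lost without vehicle replicate 1, 2 or 3 (−0.22, −0.23 and −0.25) and without melatonin replicate 2 or 3 (−0.23 and −0.18), and correction for transcript length or for GC content, which moved the value to −0.14 and −0.12, ended it too. *Sirt2* was not called in 13 of the 22 alternatives. It was −0.12 without melatonin replicates 2 and 3 as well, so the fall of *Sirt2* was the least certain of the 7 calls.

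The mitochondrial sirtuins differed from each other. SIRT5 removes succinyl, malonyl and glutaryl groups, and *Sirt5* (ENSMUSG00000054021, chr13:43518856-43550487, plus strand) was at 152, 141 and 145 normalized counts in vehicle and at 58.8, 104 and 83.4 in melatonin. Melatonin replicate 1 was the lowest and all of its group lay below the vehicle libraries. The mean went from 146 ± 5.46 to 82.0 ± 22.5 (SD, n = 3), a change of −0.86 on the log2 scale (SE 0.22, adjusted p = 0.011 by limma). Leaving out each library in turn gave −1.05 to −0.64, and without melatonin replicates 2 and 3 it was −1.30.

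SIRT4 acts on metabolic enzymes such as glutamate dehydrogenase. *Sirt4* (ENSMUSG00000029524, chr5:115616065-115622784, minus strand) was at 149, 130 and 130 normalized counts in vehicle and at 158, 198 and 190 in melatonin. The groups did not overlap, although melatonin replicate 1 was close to vehicle replicate 1. The log2 fold change of 0.41 did not pass (SE 0.16, 95% interval 0.06 to 0.76, adjusted p = 0.056 by limma), was called without melatonin replicate 1 at 0.51 and in 7 of the 22 alternatives in all, and was 0.21 without melatonin replicates 2 and 3.

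SIRT3 is the main mitochondrial deacetylase. *Sirt3* (ENSMUSG00000025486, chr7:140443577-140462311, minus strand) was at 273, 322 and 305 normalized counts in vehicle and at 282, 257 and 271 in melatonin. The groups overlapped, since melatonin replicate 1 was above vehicle replicate 1. The log2 fold change was −0.15 (95% interval −0.42 to 0.12, limma adjusted p = 0.33), an interval that holds both no change and a fall of the size seen for *Sirt2*, and was −0.08 without melatonin replicates 2 and 3. Its exons share 5.4% of their length with *Ric8a* and 5.2% with *Psmd13* on the opposite strand, both more abundant and both lower, at log2 fold changes of −0.26 and −0.42 (limma adjusted p = 0.019 and 0.0061), and reads of these stretches cannot be told apart.

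**Figure D2:**
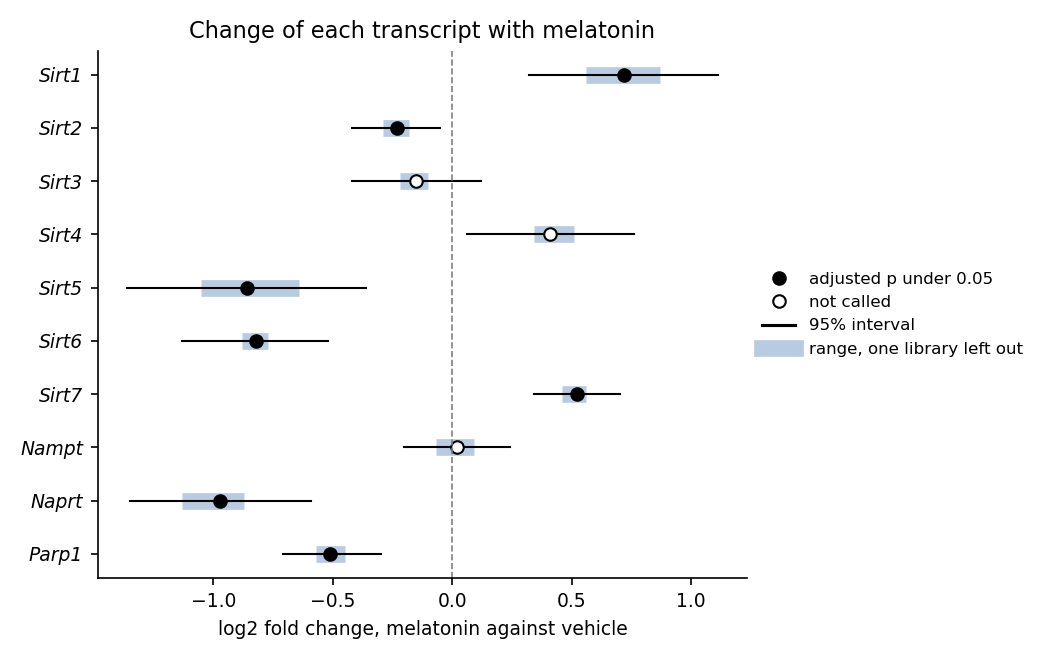
Log2 fold change (melatonin minus vehicle, limma) of the 10 transcripts with 95% intervals, 3 libraries per group. The intervals of *Sirt3* and *Nampt* include 0, that of *Sirt4* runs from 0.06 to 0.76, and *Naprt* has the lowest value, −0.97.

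Levels of the sirtuins were compared with each other per kilobase of the longest annotated transcript. On this scale *Sirt2* was at 939 and *Sirt7* at 732 normalized counts per kilobase in vehicle, at 800 and 1051 in melatonin, and the other 5 lay between 28.1 and 93.7 in both groups. *Sirt2* thus made up 47.9 ± 0.207% of the sirtuin sum in vehicle and 37.6 ± 0.481% in melatonin, and *Sirt7* 37.4 ± 0.326% and 49.4 ± 1.14% (SD, n = 3). These are shares of a sum, so a rise of *Sirt7* by itself lowers the share of *Sirt2*, whose own log2 fold change was −0.23. Within a sample, the ratio of *Sirt7* to *Sirt2* normalized counts was 1.19, 1.22 and 1.21 in vehicle and 2.05, 1.99 and 2.05 in melatonin, with no overlap. Which of the pair was the higher per kilobase in vehicle depended on the length used: the ratio was 0.78 with the longest transcripts and 1.28 with the canonical ones, and 1.31 and 2.15 in melatonin. The share of *Sirt1* went from 1.70 ± 0.0196% to 2.61 ± 0.541%, that of *Sirt5* from 2.56 ± 0.0837% to 1.33 ± 0.404%, and that of *Sirt6* from 3.21 ± 0.277% to 1.67 ± 0.206% (SD, n = 3). The sum over the 7 sirtuins was 1957 ± 33.5 per kilobase in vehicle and 2127 ± 132 in melatonin. The coding sequences of the 21 sirtuin pairs were 58.3% to 68.6% identical over aligned bases. Their whole canonical transcripts shared no run longer than 14 bases, below the 25-base minimum of the trimmed reads, and other transcripts were not compared.

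**Figure D3:**
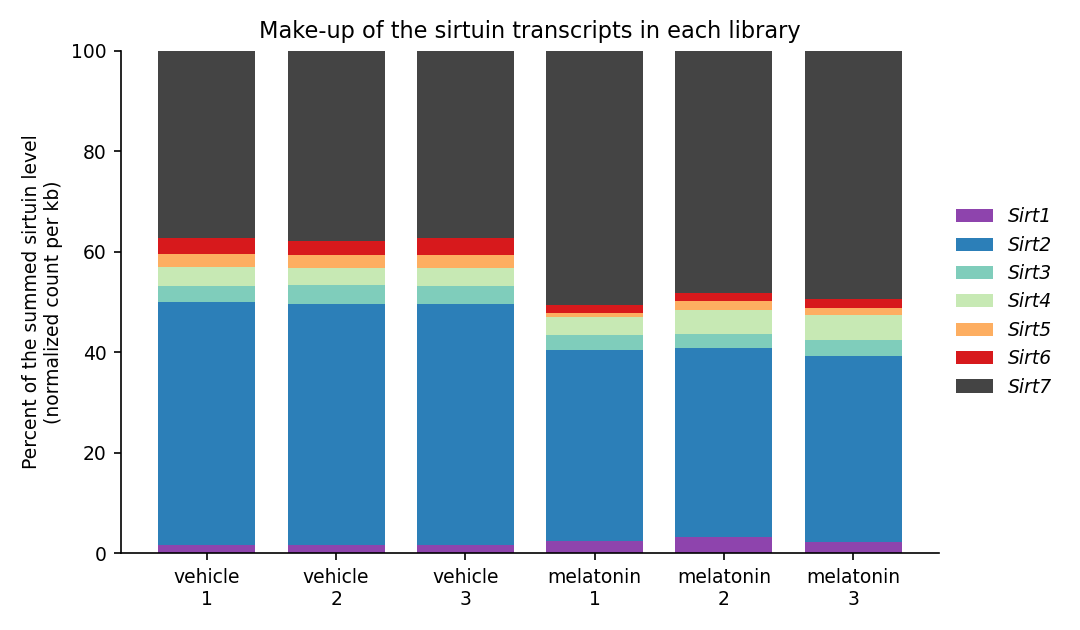
Percent of the summed sirtuin level (normalized counts per kilobase of the longest transcript) held by each of the 7 sirtuins in each library, as stacked bars. *Sirt7* takes 37.2% to 37.8% in vehicle and 48.3% to 50.6% in melatonin, and *Sirt2* 47.8% to 48.2% and 37.1% to 38.1%.

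The salvage enzymes also differed. NAPRT starts the synthesis of NAD from nicotinic acid, and *Naprt* (ENSMUSG00000022574, chr15:75762805-75766413, minus strand) was at 299, 332 and 285 normalized counts in vehicle and at 194, 142 and 135 in melatonin. Every melatonin library was well below the vehicle libraries, with melatonin replicate 1 the nearest to them. The mean fell from 305 ± 23.8 to 157 ± 32.5 (SD, n = 3), to 0.51 of vehicle. The log2 fold change was −0.97 (SE 0.17, adjusted p = 0.0017 by limma), and −0.65 without melatonin replicates 2 and 3. The exons of *Naprt* share 360 bases, 14.4% of their length, with *Eef1d* on the same strand. *Eef1d*, a translation elongation factor, also fell, from 6295 ± 264 to 3846 ± 763 (SD, n = 3, log2 fold change −0.73, limma adjusted p = 0.0027), and reads of the shared stretch cannot be told apart.

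NAMPT is the rate-limiting enzyme of the recycling of nicotinamide. *Nampt* (ENSMUSG00000020572, chr12:32869544-32903368, plus strand) was at 1366, 1268 and 1097 normalized counts in vehicle and at 1276, 1298 and 1197 in melatonin. All melatonin values lay within the range of vehicle. The log2 fold change was 0.02 (SE 0.10, 95% interval −0.20 to 0.24, adjusted p = 0.88 by limma), its sign changed with the scaling, it was 0.04 without melatonin replicates 2 and 3, and 2.5% of all genes tested had a smaller size of change.

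*Parp1* encodes the main polymerase that answers DNA strand breaks. The transcript (ENSMUSG00000026496, chr1:180396443-180431307, plus strand) was at 3899, 4273 and 4533 normalized counts in vehicle and at 2746, 3260 and 2943 in melatonin. All melatonin libraries were lower than all vehicle libraries. The mean fell from 4235 ± 319 to 2983 ± 259 (SD, n = 3), and the log2 fold change was −0.51 (SE 0.09, adjusted p = 0.0023 by limma), or −0.62 without melatonin replicates 2 and 3.

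A two-sided exact permutation test with 3 libraries on each side cannot go below 0.1, which was its value for each of the 8 transcripts that did not overlap. It gave 0.2 for *Sirt3* and 0.8 for *Nampt*. The calls of *Sirt1*, *Sirt6*, *Sirt7*, *Naprt* and *Parp1* held in the 21 alternatives that kept at least 2 libraries in each group.

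Another 78 genes were examined in 8 lists, which cover NAD metabolism, ADP-ribosylation, partners and regulators of PARP1 and SIRT1, and for comparison the deacetylases that do not use NAD, and 66 of them were tested. Of these, 23 rose and 10 fell, 50% in all, beside the 49.2% of all genes, and their median log2 fold change was 0.14 beside 0.00 for all genes. With each library left out in turn, 16 to 22 rose and 5 to 10 fell. In the NAD synthesis list, 3 of the 8 tested genes fell and none rose, beside 24.7% and 24.5% of all genes, with a median of −0.20. Without vehicle replicate 1 or 2, or with the replicate number as a block, 1 fell, which was *Haao*. *Haao*, which makes quinolinic acid for the synthesis of NAD from tryptophan, fell from 255 ± 4.08 to 94.3 ± 13.4 normalized counts (SD, n = 3), a log2 fold change of −1.43 (limma adjusted p = 0.00021). *Nmrk1*, the nicotinamide riboside kinase, fell by 0.36 on the log2 scale (limma adjusted p = 0.036), but not without vehicle replicate 1, 2 or 3 or melatonin replicate 3, over a range of −0.42 to −0.30. The third, *Ido1*, which opens the tryptophan route, was at 11.2, 7.5 and 5.25 in vehicle and at 0, 0 and 3.02 in melatonin, and was named after its values were seen. Its call held in 2 of the 6 fits that left out a library, those without vehicle replicate 3 and without melatonin replicate 3. *Nmnat1*, the nuclear adenylyltransferase that follows NAMPT and NAPRT, had a log2 fold change of −0.12 (limma adjusted p = 0.44).

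In the list of NAD phosphorylation, transport and repair, 6 of the 9 tested genes rose and none fell, beside 24.5% and 24.7% of all genes, with a median of 0.30. Without vehicle replicate 1 the number that rose was 3. *Nadk2*, the mitochondrial NAD kinase, rose from 362 ± 134 to 723 ± 146 normalized counts (SD, n = 3), a log2 fold change of 1.05 (limma adjusted p = 0.012). *Nnt*, the mitochondrial transhydrogenase that passes electrons from NADH to NADP, rose by 0.76 (limma adjusted p = 0.0012), and *Naxe*, which repairs hydrated NADH and NADPH, by 0.55 (limma adjusted p = 0.0012). *Slc25a51*, the mitochondrial NAD carrier, rose by 0.30 (limma adjusted p = 0.017), but did not pass without vehicle replicate 1 or 3 or melatonin replicate 2, over a range of 0.26 to 0.35. The cytosolic NAD kinase *Nadk* did not pass, at 0.14 (limma adjusted p = 0.17).

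Of the 15 other genes of the PARP family, 7 rose, 2 fell and 6 did not pass, beside 24.5% higher and 24.7% lower among all genes. *Tnks2*, one of the tankyrases, rose from 1322 ± 425 to 3598 ± 945 normalized counts (SD, n = 3), a log2 fold change of 1.46 (limma adjusted p = 0.0017). *Parp3*, which acts in double-strand break repair, rose by 0.89 (limma adjusted p = 0.001) and *Parp6*, a mono-ADP-ribosyltransferase, by 0.84 (limma adjusted p = 0.0027), whereas *Parp12* rose by 1.10 (limma adjusted p = 0.017) and did not pass without vehicle replicate 1, at 0.82. *Parp8* fell by 0.85 and *Parp14*, known as a partner of STAT6, by 0.46 (limma adjusted p = 0.028 and 0.041). The call of *Parp8* was lost without vehicle replicate 2 or 3 or melatonin replicate 1 or 2 (range −1.04 to −0.74), and that of *Parp14* without any library but melatonin replicate 3 (range −0.59 to −0.33). *Parp2*, the closest relative of *Parp1* in break repair, did not pass, at 0.14 (limma adjusted p = 0.22).

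Of the genes that remove or cleave ADP-ribose, 4 of 9 rose and 1 fell, where 24.5% of all genes rose and 24.7% fell. *Macrod2*, which removes single ADP-ribose units, rose by 1.12 (limma adjusted p = 0.00037), *Nudt16* by 0.78 (limma adjusted p = 0.00048) and *Parg*, the glycohydrolase that breaks down the chains PARP1 makes, by 0.34 (limma adjusted p = 0.01), the last of which was 0.20 and did not pass with correction for transcript length. *Oard1*, which frees glutamate residues of ADP-ribose, rose by 0.38 (limma adjusted p = 0.028), but not without vehicle replicate 2 or 3 or melatonin replicate 3 (range 0.31 to 0.47), and *Nudt5*, which hydrolyses free ADP-ribose, fell by 0.40 (limma adjusted p = 0.0094). Among the partners of PARP1 in single-strand break repair, the median log2 fold change was 0.04. *Aplf*, which binds poly-ADP-ribose at breaks, rose by 0.93 (limma adjusted p = 0.0012). The scaffold *Xrcc1* was at 0.04 (limma adjusted p = 0.79). Of the 3 NAD glycohydrolases, *Sarm1* rose by 1.53 and *Bst1* fell by 0.78 (limma adjusted p = 0.003 and 0.045), both at low counts and named after their values were seen. The call of *Bst1* was lost whichever library was left out (range −0.88 to −0.65), and that of *Sarm1* was kept (range 1.37 to 1.73). *Cd38*, the main one of immune cells, did not pass at 0.38 (limma adjusted p = 0.081).

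Of the 4 regulators of SIRT1, 1 rose, 1 fell and 2 did not pass, beside 24.5% higher and 24.7% lower among all genes. *Usp22*, a deubiquitinase that stabilises SIRT1, rose by 0.65 (limma adjusted p = 0.00033). *Hic1*, a repressor of the *Sirt1* promoter, fell from 603 ± 31.6 to 278 ± 91.5 normalized counts (SD, n = 3), a log2 fold change of −1.17 (limma adjusted p = 0.0028). *Ccar2*, an inhibitor of the enzyme, did not pass at 0.20 (limma adjusted p = 0.18), nor did *Rps19bp1* at −0.26 (limma adjusted p = 0.12). Without melatonin replicate 3, 2 of the 4 rose and 2 fell, in a fit that called 3426 of all genes higher and 3565 lower. Among the 9 tested zinc-dependent histone deacetylases, which do not use NAD, 2 rose and 2 fell, a share near the 49.2% of all genes called. *Hdac10* rose by 0.51 (limma adjusted p = 0.0075), *Hdac7* fell by 0.83 (limma adjusted p = 0.0019) and *Hdac1* by 0.43 (limma adjusted p = 0.0022). *Hdac6*, the other cytosolic tubulin deacetylase beside SIRT2, rose by 0.29 (limma adjusted p = 0.043), with the call lost without any library but melatonin replicate 3 (range 0.19 to 0.35). With melatonin replicate 1 as the only melatonin library, the list genes named by rule kept their direction, and *Nmrk1* (−0.35), *Slc25a51* (0.22), *Parp8* (−0.99) and *Parp14* (−0.49) did not pass.

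**Figure D4:**
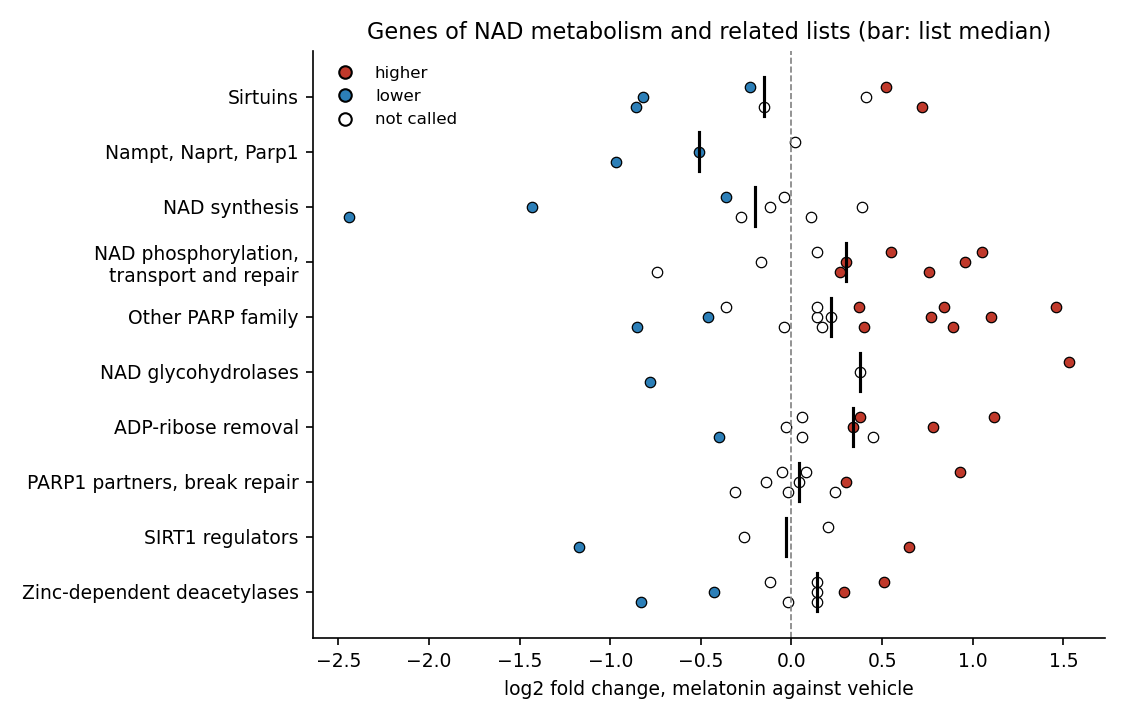
Log2 fold change (melatonin minus vehicle, limma) of each tested gene in the lists of NAD metabolism, ADP-ribosylation, DNA break repair partners, SIRT1 regulators and zinc-dependent deacetylases, with a bar at each list's median. The median of the NAD synthesis list is −0.20 and that of the list of NAD phosphorylation, transport and repair 0.30.

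As a description of likeness, the log2 values of the called transcripts with the largest rise and fall were set against the 9989 genes that averaged 100 normalized counts or more, over the 6 samples. The genes nearest to *Sirt1* were *Camta2*, *Hmgxb3* and *Zc3h7a* (Pearson r of 0.9946, 0.9943 and 0.9942), and those nearest to *Naprt* were *Cd69*, *Ccs* and *Snrpn* (0.9993, 0.9986 and 0.9975). Such likeness was common, since 1099 genes had an r above 0.9 with *Sirt1* and 814 with *Naprt*, and the 6 points share their treatment groups.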

How the data were processed

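RNA of 3 melatonin and 3 vehicle aILC2 samples was sequenced on a NextSeq system from cDNA made with a SMARTer Ultra Low kit. Per the methods, the authors trimmed reads and discarded those under 25 bases in Partek Flow 12.9.0, aligned them with STAR 2.7.8.a (mm39), counted them over Gencode M33 genes by the E/M algorithm and scaled the estimated counts by DESeq2 median ratio size factors. The deposited values are a scaled signal and not counts, because that algorithm splits reads among genes: of values under 60, 72.1% to 73.5% per sample came out whole (tolerance 0.01). Groups came from the treatment label of each sample.

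Values were tested with limma 3.58.1 in R 4.3.3 (lmFit, eBayes with a mean-variance trend) on log2(normalized count + 1), a scale that understates the change of low genes, for the genes that reached 10 in 1 sample or more. Tests were two-sided with Benjamini-Hochberg adjustment of p-values over 14419 genes, with a threshold of 0.05. The script was tested on simulated data. Other steps used numpy 2.4.6, scipy 1.17.1, pandas 2.3.3, biopython 1.88 and matplotlib 3.10.9. Gene names and positions came from the GRCm39 annotation given for this work, in which 16334 of 16381 identifiers had a name. Sirtuins were aligned by coding sequence, since no protein sequences were used here.

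All 10 members are named. From each list, called genes that averaged 50 normalized counts or more were named, up to the 4 largest changes in each direction, with a few that did not pass named for their role after their values were seen. The result of 1 list gene is not reported here. The members and lists were chosen with earlier results of these data known. The 22 alternatives covered pseudocounts of 0.1 and 10, filters, scalings, fits, thresholds, the replicate block, length and GC corrections and each sample left out. The one without melatonin replicates 2 and 3 was added after seeing the data.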

Additional observations from a re-analysis of the deposited data

How the results depend on the processing

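Among the 10 members, *Sirt1*, *Sirt6*, *Sirt7*, *Naprt* and *Parp1* kept their direction and call under the 21 alternatives with at least 2 samples per group, and *Sirt5* lost its call at a threshold of 0.01 alone. *Sirt2* lost its call with scaling to the same total (−0.19), no mean-variance trend (−0.23), the replicate block (−0.23), and the corrections for length (−0.14) and GC content (−0.12). *Sirt4* gained a call with scaling to the same total (0.44), quantile normalization (0.44), sample weights (0.48), no mean-variance trend (0.41), the corrections for length (0.52) and GC content (0.50), and without melatonin replicate 1 (0.51). Leaving out each sample in turn gave 2 to 3 members higher and 4 to 5 lower, 2739 to 3449 of all genes higher and 2711 to 3621 lower, and 16 to 22 other list genes higher and 5 to 10 lower. At a threshold of 0.01, 3 members were lower, 2188 of all genes were higher and 2267 lower, and 13 list genes were higher and 5 lower. With a log2 fold change of at least 0.5 required as well, 2334 of all genes were higher and 2661 lower, and 15 list genes were higher and 6 lower. The sign of *Nampt*, never called, was not stable: its log2 fold change was −0.03 with upper quartile scaling, −0.02 with quantile normalization, −0.10 and −0.11 with the corrections for length and GC content, −0.07 without vehicle replicate 3 and 0.00 without melatonin replicate 2, in a range of −0.07 to 0.09 over the samples left out. The cause was not tested.

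Samples with the same replicate number did not deviate together (correlations of −0.054, 0.006 and −0.048), and no sample correlated best with its own number. As deviations from means of 3 samples, these values cannot show whether same-numbered samples shared an animal, a pool or a culture. With the replicate number as a block, 2 members were higher and 4 lower, and 20 list genes were higher and 6 lower, beside 3160 of all genes higher and 3278 lower. With 3 samples a group, a change as small as that of *Sirt2* lies near the limit of the test, and values such as those of *Sirt5* rest on as few as 63 estimated counts.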
